A study of Mus musculus with 4 samples.

Results

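Regulators of the trophoblast, the outer lineage of the early mouse embryo, were followed together with the keratins of simple epithelia in female epiblast stem cells (EpiSCs), which are pluripotent cells derived from the epiblast. The 9 genes, Krt7, Krt8, Krt18, Krt19, Hand1, Tfap2c, Cdx2, Elf5 and Gata3, were chosen by name from the 22686 genes of an allele-specific RNA-seq table, and all 9 were found. The libraries were, in the order used throughout, Smchd1 MD1/MD1 with Xist1lox/+, Smchd1 +/+ with Xist1lox/+, Smchd1 MD1/MD1 with XistdeltaA/+ and Smchd1 +/+ with XistdeltaA/+. Smchd1 encodes a chromatin protein of X inactivation, and Xist the long noncoding RNA that coats the silenced X. All cells came from female E6.5 embryos from a cross of C57BL6/J with F1 animals of JF1 and C57BL6/J, and all, the +/+ ones included, carried a mutant Xist allele. There was 1 library for each combined genotype, so differences between single libraries have no replicate check. The sources used here do not give the number of embryos or lines behind a library.

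CDX2, ELF5, EOMES, TFAP2C and GATA3 are transcription factors of the trophectoderm and of trophoblast stem cells in the mouse, and HAND1 is needed for trophoblast giant cells and for extraembryonic mesoderm. Keratins are built as pairs of a type I and a type II chain. KRT18 and KRT19 are type I chains, KRT8 and KRT7 are type II chains, and KRT8 with KRT18 is the first keratin pair made in the embryo and the usual pair of simple epithelia. The epiblast itself is an epithelium, so simple keratins are no marker of trophoblast on their own.

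The libraries held 7301034 to 8008500 allele-assigned reads, the subset of a gene's reads that overlap a strain variant. Smchd1 was at 5.98 and 6.68 FPKM in the MD1/MD1 libraries, against 20.9 and 27.0 FPKM in the +/+ libraries (Xist1lox/+ and then XistdeltaA/+ for each). Expression is given as FPKM, fragments scaled for transcript length and library size, which can be compared between genes since it is per length. Ratios are on the log2(FPKM + 1) scale, which understates the change of low genes. Markers of the labelled cell type were present. Pou5f1, the pluripotency factor OCT4, ranged from 551 to 984 FPKM and the primed marker Fgf5 from 25.6 to 41.8 FPKM, while Zfp42, a marker of the naive state, ranged from 0.463 to 1.15 FPKM. Of 7 genes linked to the naive state, Klf4 (24.2 to 34.8 FPKM) and Klf2 (30.8 to 50.6 FPKM) were not low, and the other 5 had means under 1 FPKM. RNA of other cell types varied between libraries. The summed FPKM of 8 macrophage genes was 292 in MD1/MD1 Xist1lox/+ and 323 in +/+ Xist1lox/+, and 912 in MD1/MD1 XistdeltaA/+ and 24.2 in +/+ XistdeltaA/+, where Tyrobp was listed at 0. The sum of 10 fibroblast genes was 60.0 and 59.1 in the MD1/MD1 and +/+ libraries with Xist1lox/+, and 124 and 44.8 in those with XistdeltaA/+, with no gene at 0. With XistdeltaA/+ 5 of 6 measured macrophage genes and 5 of 9 measured fibroblast genes were at least 2-fold higher in MD1/MD1 than in +/+, where 3.91% of all genes were, and 0 of either list with Xist1lox/+. Of 8 primed genes 2 were 2-fold higher in MD1/MD1 with XistdeltaA/+ (Sox2 and Dnmt3b) and 0 with Xist1lox/+, and of 2 measured naive genes 0 passed in either pair. Sox2, Dnmt3b and Pou5f1 were lowest in +/+ XistdeltaA/+ (30.5, 144 and 551 FPKM). In the XistdeltaA/+ pair the log2 ratios were 0.63 for Pou5f1, 0.53 for Pou3f1 and 0.22 for Fgf5. Otx2, Nanog and Zic2 went the other way (-0.85, -0.62 and -0.48). For both the macrophage and the fibroblast sum, MD1/MD1 XistdeltaA/+ was highest and +/+ XistdeltaA/+ lowest. Most of the macrophage sum was Lyz2 in MD1/MD1 XistdeltaA/+ (799 FPKM) and Cd68 in +/+ XistdeltaA/+ (21.7 FPKM, with Lyz2 at 0.384 FPKM). Single genes did not all follow the order of the sums. Cd68 was lower in both Xist1lox/+ libraries (18.1 and 19.3 FPKM). Aif1 (0.450 FPKM) and the fibroblast gene Postn (2.03 FPKM) were highest in +/+ XistdeltaA/+. In bulk samples, fewer cells of a type and less RNA per cell cannot be told apart.

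Of the 3 simple keratin genes on chromosome 15, Krt8 and Krt18 lie 23873 bases apart and Krt7 lies farther from both. Promoter sequences of all 3 are shown because their RNA levels parted in these libraries. Each runs 5′ to 3′ along the gene, from 250 bases before to 50 bases after the start in RefSeq (build GRCm38.p6, not the mm9 build of the expression table). Capitals mark matches to the AP-2 motif GCCNNNGGC, bound by TFAP2C and its relatives, and to the TATA motif TATAAA, both searched on both strands.
Krt7, chr15:101412153-101412452, plus strand: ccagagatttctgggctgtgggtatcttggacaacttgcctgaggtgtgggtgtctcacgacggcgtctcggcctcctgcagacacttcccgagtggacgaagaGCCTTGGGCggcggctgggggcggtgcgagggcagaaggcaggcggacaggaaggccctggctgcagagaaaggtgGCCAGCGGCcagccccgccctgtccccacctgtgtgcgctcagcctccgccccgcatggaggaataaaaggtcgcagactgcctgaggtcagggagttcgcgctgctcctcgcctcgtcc
Krt8, chr15:102004293-102004592, minus strand: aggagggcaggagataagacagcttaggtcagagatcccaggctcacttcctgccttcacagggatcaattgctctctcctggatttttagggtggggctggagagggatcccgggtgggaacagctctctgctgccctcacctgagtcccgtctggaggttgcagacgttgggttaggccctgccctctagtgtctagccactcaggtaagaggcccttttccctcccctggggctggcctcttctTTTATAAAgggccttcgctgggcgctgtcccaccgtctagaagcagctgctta
Krt18, chr15:102027966-102028265, plus strand: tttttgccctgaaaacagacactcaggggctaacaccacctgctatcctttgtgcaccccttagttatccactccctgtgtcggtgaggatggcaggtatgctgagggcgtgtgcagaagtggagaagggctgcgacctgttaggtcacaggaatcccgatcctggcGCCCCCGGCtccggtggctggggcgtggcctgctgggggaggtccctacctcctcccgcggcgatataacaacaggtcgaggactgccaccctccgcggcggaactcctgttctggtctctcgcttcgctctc

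The Krt7 window held 2 AP-2 matches, at bases 105 and 181, and the Krt18 window held 1, at base 168. The Krt8 window held no AP-2 match and a TATA match at base 250 that overlaps a reverse-strand match at base 248. Of 32851 promoter windows of this length, 16.6% held the AP-2 motif and 13.6% the TATA motif. Of the other members with an entry, the Gata3 window held 3 AP-2 matches, the Cdx2 window 1, and neither of the 2 Elf5 windows any. The Krt8 window alone held the GATA motif AGATAA (in 11.2% of all windows), and the Krt7 and Krt8 windows each held the ETS motif GGAAGT (in 23.8%), on the reverse strand. Krt19, Hand1 and Tfap2c had no entry. Such a match is a description of letters and shows no binding.

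By level the genes fell into 3 tiers. Krt18, with a mean of 289 FPKM over the 4 libraries, and Krt8, with 182 FPKM, were among the most abundant transcripts of these cells: in every library at least 97.8% of the genes in the table had a lower FPKM. Their ranges, 210 to 415 FPKM for Krt18 and 153 to 255 FPKM for Krt8, overlapped. Krt19 stood apart below them with a mean of 45.4 FPKM and a range of 30.6 to 62.3 FPKM. A middle tier held Krt7 (mean 2.96 FPKM), Tfap2c (1.78 FPKM) and Hand1 (1.51 FPKM), whose ranges overlapped. Gata3 (0.144 FPKM), Elf5 (0.0194 FPKM) and Cdx2 (0.00609 FPKM) were at or near 0 in all 4 libraries. With a minimum mean of 1 FPKM, 6 of the 9 genes entered the comparisons across genes, and Hand1 did so through 1 library alone.

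**Figure D1:**
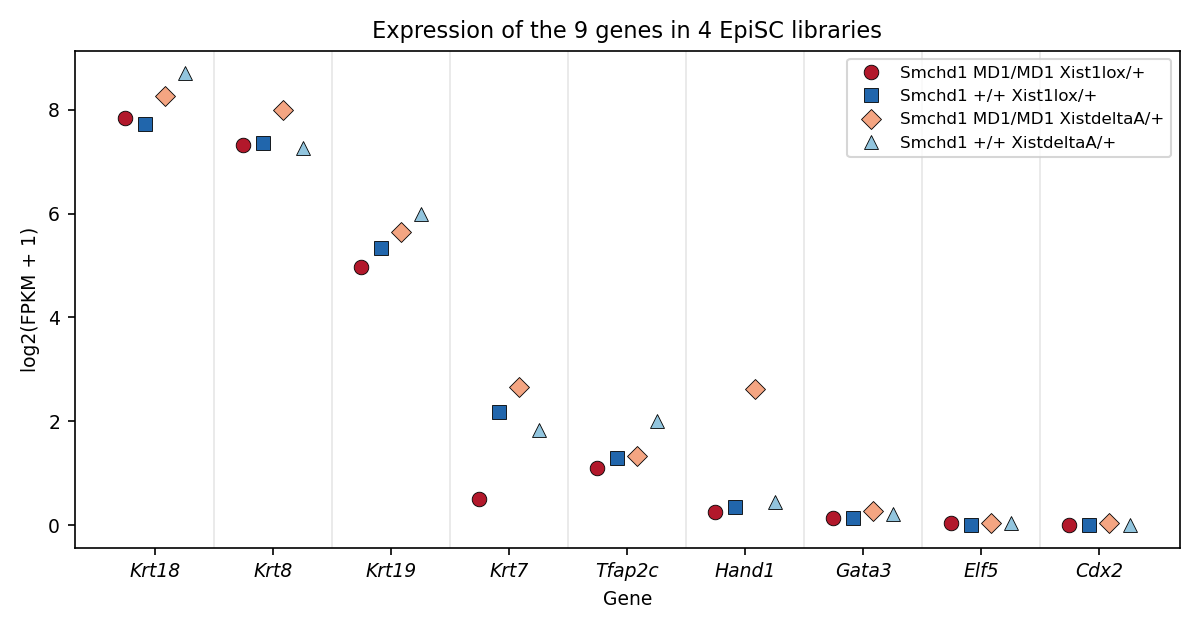
Expression of the 9 genes as log2(FPKM + 1), 1 point per library, genes ordered by mean FPKM. Krt18, Krt8 and Krt19 sit at the top in all 4 libraries, Krt7 is low in MD1/MD1 Xist1lox/+, Hand1 is high in MD1/MD1 XistdeltaA/+ alone, and Gata3, Elf5 and Cdx2 lie near 0.

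Krt18, the type I chain of the main pair (mm9, chromosome 15, 101858647 to 101862457, plus strand), had 227 FPKM in MD1/MD1 Xist1lox/+ and 210 FPKM in +/+ Xist1lox/+. With XistdeltaA/+ it had 305 FPKM in MD1/MD1 and 415 FPKM in +/+. Both Xist1lox/+ libraries were therefore below both XistdeltaA/+ libraries, while the Smchd1 genotypes overlapped. The log2 ratios for MD1/MD1 over +/+ were 0.11 with Xist1lox/+ and -0.44 with XistdeltaA/+. Those for Xist1lox/+ over XistdeltaA/+ were -0.42 in MD1/MD1 and -0.98 in +/+. The allele-assigned reads of Krt18, 6586 and 6603 in the Xist1lox/+ pair and 10015 and 12143 in the XistdeltaA/+ pair (MD1/MD1 and then +/+), gave close values as RPM (reads scaled to the total of allele-assigned reads in the library), with log2 ratios of -0.47 (-0.52 to -0.43) and -0.88 (-0.92 to -0.83) for Xist1lox/+ over XistdeltaA/+ in MD1/MD1 and in +/+. These intervals are exact at 95% and cover counting error only.

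Krt8, the type II partner (mm9, chromosome 15, 101827142 to 101834773, minus strand), lies 23873 bases from Krt18 and had another pattern. It had 158 FPKM in MD1/MD1 Xist1lox/+ and 162 FPKM in +/+ Xist1lox/+, and 255 FPKM in MD1/MD1 XistdeltaA/+ and 153 FPKM in +/+ XistdeltaA/+. The other libraries were thus within a narrow band and MD1/MD1 XistdeltaA/+ stood above them. The log2 ratios for MD1/MD1 over +/+ were -0.04 with Xist1lox/+ and 0.73 with XistdeltaA/+. The reads, 3070 and 3132 with Xist1lox/+ and 4898 and 3011 with XistdeltaA/+ (MD1/MD1 and then +/+), gave 0.07 (-0.0017 to 0.14) and 0.67 (0.60 to 0.73). The library in which Krt8 was highest was also the one with the highest macrophage and fibroblast sums, and the part of those cells in the result was not tested. A processed copy, Krt8-ps, is annotated in the reference, and reads shared with it would make the FPKM of Krt8 uncertain.

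The balance of the pair differed in 1 library. Krt18 FPKM over Krt8 FPKM was 1.44 in MD1/MD1 Xist1lox/+, 1.30 in +/+ Xist1lox/+, 1.20 in MD1/MD1 XistdeltaA/+ and 2.71 in +/+ XistdeltaA/+. With Krt19 and Krt7 added, type I over type II was 1.63, 1.51, 1.36 and 3.06 in the same order. The +/+ XistdeltaA/+ library held the highest Krt18 and the lowest Krt8, and it was also the library with the lowest macrophage and fibroblast sums. The 4 keratins summed to 416 and 415 FPKM in the MD1/MD1 and +/+ libraries with Xist1lox/+, and to 615 and 633 FPKM in those with XistdeltaA/+. Their total was thus nearly the same within each Xist background. With XistdeltaA/+ it joined opposite differences, as Krt8 had 255 FPKM in MD1/MD1 against 153 in +/+, and Krt18 305 against 415 FPKM. The total was higher in both XistdeltaA/+ libraries, though Krt8 alone did not have that order. Of all genes, 17.9% were lower in both Xist1lox/+ libraries than in both XistdeltaA/+ libraries.

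**Figure D2:**
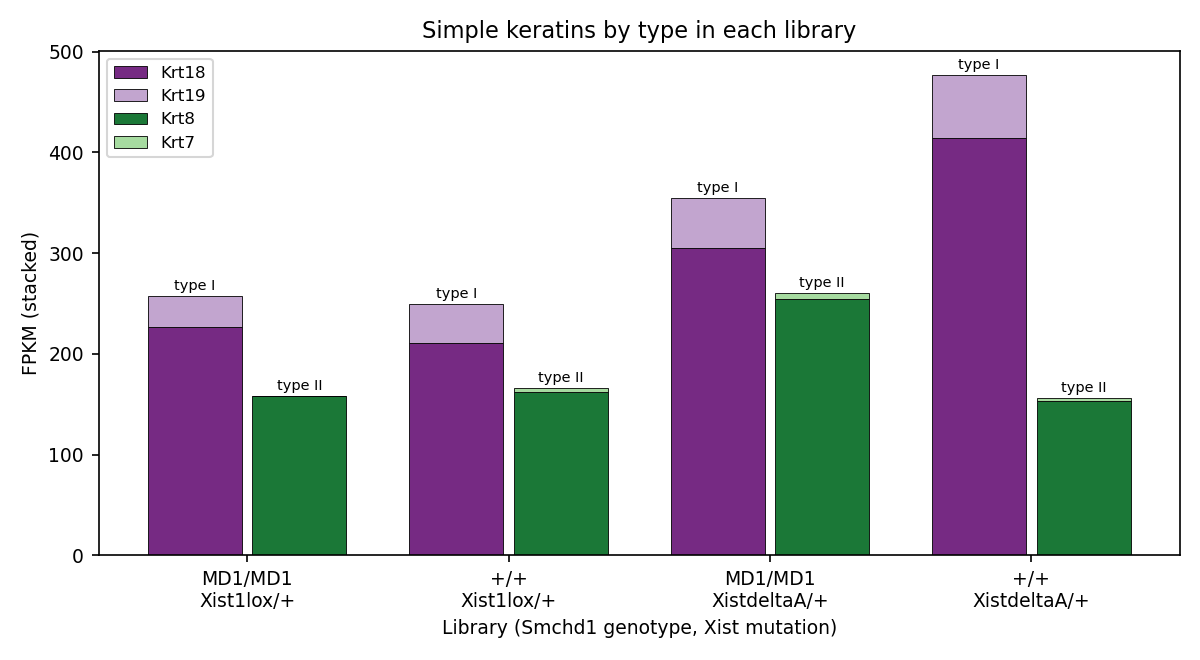
FPKM of the type I chains Krt18 and Krt19 and of the type II chains Krt8 and Krt7, stacked, for each library, on a linear axis from 0. Type I exceeds type II in each library, by 1.36 to 1.63 times in the first 3 and by 3.06 times in +/+ XistdeltaA/+.

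Krt19, a type I chain that lacks most of the tail domain (mm9, chromosome 11, 100002126 to 100007233, minus strand), had 30.6 FPKM in MD1/MD1 Xist1lox/+ and 39.5 FPKM in +/+ Xist1lox/+. With XistdeltaA/+ it had 49.4 FPKM in MD1/MD1 and 62.3 FPKM in +/+. Both Xist1lox/+ libraries were below both XistdeltaA/+ libraries, and within each Xist background the MD1/MD1 library was below the +/+ library. The log2 ratios were -0.36 and -0.33 for MD1/MD1 over +/+ (Xist1lox/+ and XistdeltaA/+), and -0.67 and -0.65 for Xist1lox/+ over XistdeltaA/+ (MD1/MD1 and +/+). Reads gave -0.43 (-0.60 to -0.25) and -0.29 (-0.43 to -0.16) for the Smchd1 comparison in the same order. Krt19 made up 11.9% to 15.8% of type I keratin FPKM.

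Krt7, a type II chain of trophoblast and ductal epithelia (mm9, chromosome 15, 101242834 to 101258237, plus strand), was the one of the 4 simple keratins that varied most, 12.6 times between its lowest and its highest library. It had 0.424 FPKM in MD1/MD1 Xist1lox/+ and 3.53 FPKM in +/+ Xist1lox/+, and 5.34 FPKM in MD1/MD1 XistdeltaA/+ and 2.55 FPKM in +/+ XistdeltaA/+. The MD1/MD1 libraries were thus the lowest and the highest, on both sides of the +/+ libraries. The log2 ratios for MD1/MD1 over +/+ were -1.67 with Xist1lox/+ and 0.83 with XistdeltaA/+. Reads were 8 against 80 with Xist1lox/+ and 138 against 52 with XistdeltaA/+ (MD1/MD1 against +/+), which as RPM gave -3.22 (-4.48 to -2.17) and 1.37 (0.90 to 1.86). Krt7 was 0.268% of type II keratin FPKM in MD1/MD1 Xist1lox/+ and 1.64% to 2.13% in the other libraries.

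Of the other 48 genes named Krt with a number, 0 had a mean of 1 FPKM or more and 40 had a mean under 0.1 FPKM. Members of this group were summed at 3.15 and 3.21 FPKM with Xist1lox/+ and at 4.49 and 3.43 FPKM with XistdeltaA/+ (MD1/MD1 and then +/+). The 4 simple keratins thus held 99.2% to 99.5% of all keratin FPKM. The highest of the rest were Krt80, an epithelial type II chain with 0.455 to 0.919 FPKM, and Krt10, a type I chain of differentiated epidermis with 0.200 to 0.992 FPKM.

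Among the regulators, Tfap2c (mm9, chromosome 2, 172375093 to 172384121), an AP-2 factor of trophoblast and of primordial germ cells, had 1.14 FPKM in MD1/MD1 Xist1lox/+ and 1.45 FPKM in +/+ Xist1lox/+. With XistdeltaA/+ it had 1.51 FPKM in MD1/MD1 and 3.02 FPKM in +/+. The +/+ XistdeltaA/+ library was highest and the other 3 lay close together. The log2 ratios for MD1/MD1 over +/+ were -0.20 and -0.68 (Xist1lox/+ and XistdeltaA/+). Allele-assigned reads, the smaller readout, were 6 against 16 with Xist1lox/+ and 6 against 22 with XistdeltaA/+, where the interval of the log2 RPM ratio, -2.96 to 0.11, included 0 in the first pair and, at -3.50 to -0.56, did not in the second. For Xist1lox/+ over XistdeltaA/+ the log2 ratios of FPKM + 1 were -0.23 in MD1/MD1 and -0.71 in +/+, while RPM gave 0.13 (-1.77 to 2.04) and -0.46 (-1.49 to 0.54), so the direction in MD1/MD1 differed between the readouts. Of the AP-2 family only Tfap2c had a mean of 1 FPKM or more. Tfap2a, an AP-2 factor of surface ectoderm and neural crest, had 0.158 to 0.281 FPKM, Tfap2b and Tfap2e had at most 0.131 and 0.139 FPKM, and Tfap2d was listed at 0 in all 4 libraries.

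Hand1, a basic helix-loop-helix factor (mm9, chromosome 11, 57642215 to 57645649), had 0.189 FPKM in MD1/MD1 Xist1lox/+ and 0.277 FPKM in +/+ Xist1lox/+. It had 5.19 FPKM in MD1/MD1 XistdeltaA/+ and 0.372 FPKM in +/+ XistdeltaA/+. It was high in a single library. The log2 ratios for MD1/MD1 over +/+ were -0.10 with Xist1lox/+ and 2.17 with XistdeltaA/+, and the ratio of Xist1lox/+ over XistdeltaA/+ was -2.38 in MD1/MD1. No allele-assigned read fell on Hand1 in any library, so the second readout cannot bear on it. The high library was again the one with the highest macrophage and fibroblast sums, whose part in this value was not tested.

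The list of other extraembryonic mesoderm genes, where Hand1 also acts, held little RNA. Of 12 genes, 7 had a mean under 0.1 FPKM and 2 had a mean of at least 1 FPKM. Msx1, a homeobox factor induced by BMP signals, was 1 of these, with 2.19 FPKM in MD1/MD1 Xist1lox/+, 1.70 FPKM in +/+ Xist1lox/+, 9.31 FPKM in MD1/MD1 XistdeltaA/+ and 3.69 FPKM in +/+ XistdeltaA/+. It was highest in the same library as Hand1, with a log2 ratio of 1.14 for MD1/MD1 over +/+ there and 0.24 with Xist1lox/+. Bmp4, the other, had 1.53 and 3.58 FPKM with Xist1lox/+ and 2.30 and 2.17 FPKM with XistdeltaA/+ (MD1/MD1 and then +/+), so it did not share that pattern. Hand2 was at most 0.163 FPKM and Foxf1 at most 0.0240 FPKM. The median log2 ratio of Msx1 and Bmp4 for MD1/MD1 over +/+ was 0.60 with XistdeltaA/+ and -0.31 with Xist1lox/+.

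The remaining regulators were close to absent. Gata3 (mm9, chromosome 2, 9778705 to 9800227), a zinc finger factor of the trophectoderm, had 0.106 FPKM in MD1/MD1 Xist1lox/+, 0.107 FPKM in +/+ Xist1lox/+, 0.204 FPKM in MD1/MD1 XistdeltaA/+ and 0.159 FPKM in +/+ XistdeltaA/+, on 2 to 10 reads a library. Elf5 (mm9, chromosome 2, 103252255 to 103291145), an ETS factor of trophoblast stem cells, was listed at 0 in +/+ Xist1lox/+ and at 0.0278, 0.0235 and 0.0263 FPKM in MD1/MD1 Xist1lox/+, MD1/MD1 XistdeltaA/+ and +/+ XistdeltaA/+. Cdx2 (mm9, chromosome 5, 148112476 to 148118825), the caudal homeobox factor of the trophectoderm, was listed at 0 in 3 libraries and at 0.0244 FPKM in MD1/MD1 XistdeltaA/+. At these levels no difference was detectable. The other CDX genes, Cdx1 and Cdx4, had at most 0.122 and 0.145 FPKM. Of the GATA family 0 of 6 had a mean of 1 FPKM or more, and the highest value was 0.436 FPKM, for Gata2 in MD1/MD1 XistdeltaA/+.

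At 2-fold, 1 of the 6 genes with a mean of at least 1 FPKM was lower (Krt7) and 0 were higher in MD1/MD1 than in +/+ with Xist1lox/+, where 0.375% of 11471 genes were lower and 0.445% higher. With XistdeltaA/+ 1 gene was higher (Hand1, which entered through that library alone) and 0 were lower, against 3.91% and 1.82% of all genes. For Xist1lox/+ over XistdeltaA/+, Krt7 and Hand1 were 2-fold lower in MD1/MD1 and 0 higher, against 2.17% and 0.323% of all genes. In +/+ 0 of 6 passed in either direction, against 1.4% lower and 1.73% higher. Krt18 came nearest there, 1.97 times lower. The median log2 ratio of the 6 genes was -0.15 with Xist1lox/+ and 0.20 with XistdeltaA/+ for MD1/MD1 over +/+, and -0.68 in MD1/MD1 and -0.38 in +/+ for Xist1lox/+ over XistdeltaA/+. The median of all 11471 genes lay between -0.05 and 0.04 in each. Hand1 counts in the medians of the 6 genes, though it entered through MD1/MD1 XistdeltaA/+ alone. With XistdeltaA/+, MD1/MD1 over +/+ was above 0 for Hand1 (2.17), Krt7 (0.83) and Krt8 (0.73). The ratio was below 0 for Tfap2c (-0.68), Krt18 (-0.44) and Krt19 (-0.33). Nothing is read from the medians that use MD1/MD1 XistdeltaA/+. Comparisons by Smchd1 genotype and by Xist mutation share their libraries.

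**Figure D3:**
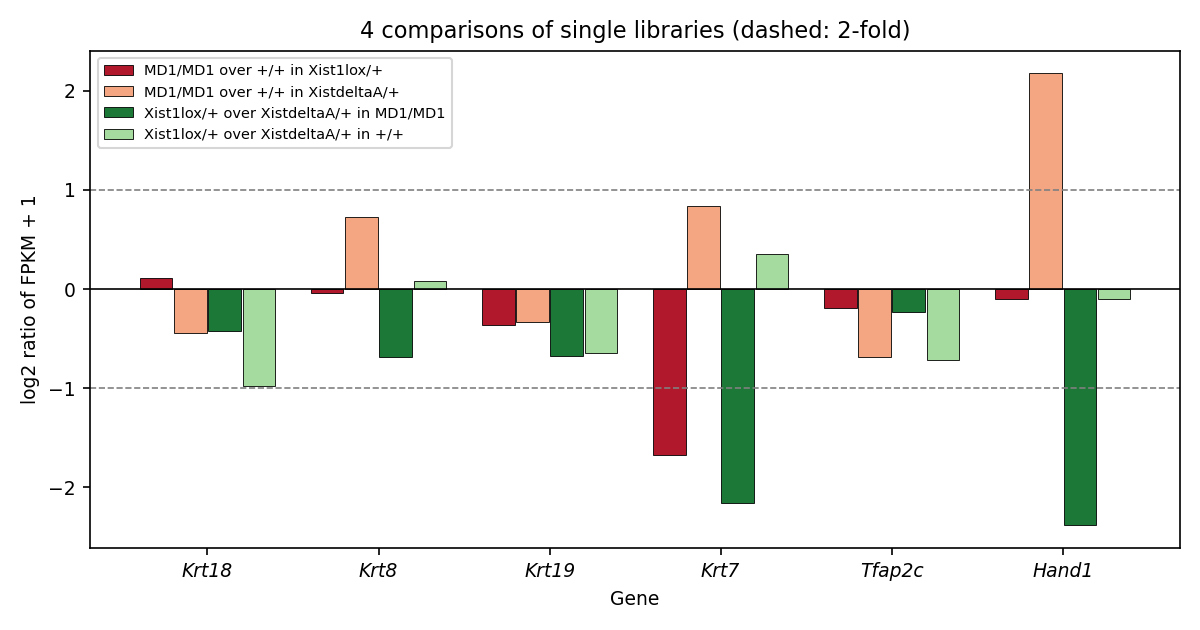
Log2 ratios of FPKM + 1 for the 6 genes with a mean of at least 1 FPKM in the 4 comparisons of single libraries, with dashed lines at 2-fold. Krt7 and Hand1 cross the lines, Krt7 in opposite directions for MD1/MD1 over +/+ without reaching 2-fold with XistdeltaA/+ (0.83), and Krt18, Krt19, Hand1 and Tfap2c are below 0 in both ratios of Xist1lox/+ over XistdeltaA/+.

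By Xist mutation, both Xist1lox/+ libraries were lower than both XistdeltaA/+ libraries for 4 of the 6 genes, Krt18, Krt19, Hand1 and Tfap2c. Of all genes, 17.9% had this order and 20% the opposite one. Hand1 entered through MD1/MD1 XistdeltaA/+ alone, so nothing is read from its order. For Tfap2c the log2 RPM ratio in MD1/MD1 was 0.13 (-1.77 to 2.04), so its reads did not show this order. By Smchd1 genotype 0 of the 6 genes separated the libraries in either direction, against 13.8% of all genes higher and 18.9% lower in both MD1/MD1 libraries. A fit over all genes with limma on both terms, with 1 residual degree of freedom, called none of the 6 genes. Its log2 difference for MD1/MD1 minus +/+ was 0.35 ± 0.22 for Krt8, -0.17 ± 0.18 for Krt18, -0.34 ± 0.16 for Krt19, -0.42 ± 0.59 for Krt7, -0.44 ± 0.27 for Tfap2c and 1.04 ± 0.57 for Hand1 (SE), with adjusted p from limma between 0.937 and 0.946. For Xist1lox/+ minus XistdeltaA/+ it was -0.70 ± 0.18 for Krt18 and -0.66 ± 0.16 for Krt19, with unadjusted limma p of 0.0114 and 0.00731 and an adjusted p of 0.927 for both. For Krt7, Krt8, Hand1 and Tfap2c it was -0.90 ± 0.59, -0.30 ± 0.22, -1.24 ± 0.57 and -0.47 ± 0.27. Over all 11471 genes limma called 4 genes (0.0349%) for Smchd1 genotype and 0 (0%) for Xist mutation, where 368 genes had an unadjusted p under 0.05. edgeR on the allele-assigned reads called 5 and 0 genes, with 325 at an unadjusted p under 0.05 for Xist mutation. Of the members it tested Krt7, Krt8, Krt18, Krt19 and Tfap2c and called none of them. Hand1, Cdx2, Elf5 and Gata3 had too few reads to be tested there.

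These Xist calls rested on which library was kept. With Xist mutation as the only term and without +/+ XistdeltaA/+, limma called Krt8 lower with Xist1lox/+ (-0.67, adjusted p = 0.0286), as it did 2.35% of all genes. It also called Hand1, but the lone XistdeltaA/+ library of that fit is the one that carried Hand1 past the filter, so nothing is read from that call. Without MD1/MD1 XistdeltaA/+ it called Krt18 (-0.92, adjusted p = 0.0112) and Krt19 (-0.82, adjusted p = 0.0340) instead, and 3.3% of all genes were called lower there. Each such fit leaves a lone XistdeltaA/+ library, which is assumed to vary like the others.

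The parental origin of the reads was examined next. In the XistdeltaA/+ libraries and in MD1/MD1 Xist1lox/+ the keratins with enough reads for a share were read from both alleles. Krt8 leaned to the paternal allele in every library, with paternal shares of 59.5% (57.8 to 61.3) in MD1/MD1 Xist1lox/+, 57.6% (55.9 to 59.4) in +/+ Xist1lox/+, 56.9% (55.5 to 58.3) in MD1/MD1 XistdeltaA/+ and 57.8% (56.0 to 59.6) in +/+ XistdeltaA/+ (exact Clopper-Pearson intervals at 95%). Genes within 2 Mb of Krt8, 41 with at least 20 reads in every library, had median shares of 49.6%, 48.8%, 47.5% and 49.0% in the same libraries. The share of Krt8 exceeded that of 41, 39, 40 and 36 of these 41 genes. The same kind of cross was used for all libraries, so a lean by parent and a lean by strain cannot be told apart. The part of reads shared with Krt8-ps in these shares was not tested.

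Krt18 lay nearer to equality. Its paternal share was 52.7% (51.5 to 53.9) in MD1/MD1 Xist1lox/+, 52.2% (51.0 to 53.4) in +/+ Xist1lox/+, 52.4% (51.4 to 53.3) in MD1/MD1 XistdeltaA/+ and 47.7% (46.8 to 48.6) in +/+ XistdeltaA/+. The +/+ XistdeltaA/+ library was the low one, and it is the library where Krt18 was highest. In MD1/MD1 XistdeltaA/+ Krt18 had 655 paternal and 596 maternal RPM, against 740 and 812 RPM in +/+ XistdeltaA/+. The difference of 4.69 points for MD1/MD1 minus +/+ passed Fisher's exact test on reads (two-sided, adjusted p = 1.88e-11 over 9923 genes). Such a test sets library against library rather than condition against condition, and it called 37.3% of all genes with XistdeltaA/+ and 37.2% with Xist1lox/+, while 54% of genes differed by at least as many points as Krt18. With Xist1lox/+ the difference of Krt18 was 0.50 points (adjusted p = 0.797 by Fisher's exact test). Krt8 differed by 1.88 points with Xist1lox/+ (adjusted p = 0.280) and by -0.91 points with XistdeltaA/+ (adjusted p = 0.628) by the same exact test.

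No read of Krt19 was assigned to the paternal allele in 1 library. It had 0 of 654 reads so assigned in +/+ Xist1lox/+, for which the exact interval reaches 0.562%. Its paternal share was 53.5% (48.8 to 58.2) in MD1/MD1 Xist1lox/+, 44.9% (41.5 to 48.3) in MD1/MD1 XistdeltaA/+ and 48.0% (44.8 to 51.1) in +/+ XistdeltaA/+. The neighbourhood did the same: 71 genes within 2 Mb had a median share of 0% and a highest share of 3.70% in +/+ Xist1lox/+, and medians of 50%, 47.4% and 50.2% in the other libraries in the order just given. The value of Krt19 was thus that of its region, and whether the alleles there can be told apart by strain in that library was not tested. The FPKM of Krt19 in that library, 39.5, lay inside the range of the others. The difference with Xist1lox/+ passed Fisher's exact test (adjusted p = 1.41e-116). Since the region nearly lacked paternal reads in that library, the test cannot speak to Krt19 itself. Krt19's region was not alone: 19 genes within 2 Mb of Cdx2 had a median share of 0% and a highest of 1.72% in MD1/MD1 Xist1lox/+. With XistdeltaA/+ the difference of Krt19 was -3.09 points (adjusted p = 0.340 by the same exact test).

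Krt7 had shares of 48.8% (37.4 to 60.2) in +/+ Xist1lox/+, 51.4% (42.8 to 60.0) in MD1/MD1 XistdeltaA/+ and 51.9% (37.6 to 66.0) in +/+ XistdeltaA/+, and none was given for the 8 reads of MD1/MD1 Xist1lox/+. All 3 intervals held the median share of the 50 genes within 2 Mb. In MD1/MD1 XistdeltaA/+, where Krt7 was highest, it had 8.87 paternal and 8.37 maternal RPM, against 3.45 and 3.19 in +/+ XistdeltaA/+, so both alleles were read more often. Krt8 was likewise higher from both alleles in that library, with 348 paternal and 264 maternal RPM, against 222 and 162 in +/+ XistdeltaA/+. The 16 and 22 reads of Tfap2c in the +/+ libraries gave 18.8% (4.05 to 45.6) with Xist1lox/+ and 45.5% (24.4 to 67.8) with XistdeltaA/+.

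**Figure D4:**
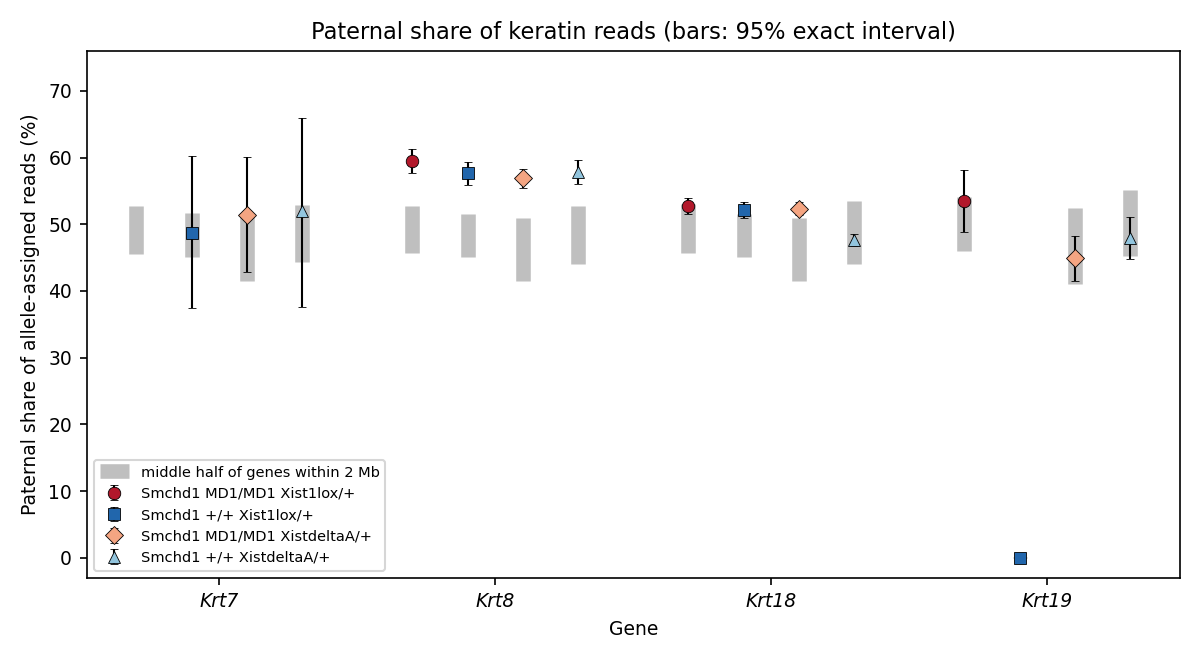
Paternal share of allele-assigned reads, in percent, for the 4 simple keratins in each library, with exact 95% intervals, and in grey the middle 50% of genes within 2 Mb that had at least 20 reads in every library. Krt8 lies above the grey bars in all 4 libraries, and Krt19 is at 0% in +/+ Xist1lox/+ together with its neighbourhood, where the grey bar shrinks to 0% to 0.0937%.

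A list of 20 other trophoblast genes was set beside the members. Of these, 9 had a mean of at least 1 FPKM and 4 a mean under 0.1 FPKM. Prl3d1, a hormone of giant cells, and Tpbpa, a marker of the spongiotrophoblast, were listed at 0 in all 4 libraries, and Syna and Synb, the fusion proteins of the labyrinth, were at most 0.0610 and 0.0176 FPKM. Eomes, which is also made in the epiblast and primitive streak, had a mean of 1.89 FPKM. At 2-fold, 2 of the 9 were higher and 1 lower in MD1/MD1 with XistdeltaA/+, against 3.91% and 1.82% of all genes, and 0 in either direction with Xist1lox/+, while their median log2 ratios were -0.10 and 0.0029. For Xist1lox/+ over XistdeltaA/+ 3 were lower in MD1/MD1 (median -0.10), against 2.17% of all genes. In +/+ 1 was higher and 2 lower (median -0.02), against 1.73% and 1.4%. Prl2c2 is among the 3 lower and the 2 higher genes, though only MD1/MD1 XistdeltaA/+ carried its mean past 1 FPKM.

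The genes past 2-fold went in different directions. Lgals3, which encodes galectin-3 and is made by trophoblast and by macrophages, had 18.4 FPKM in MD1/MD1 Xist1lox/+, 23.4 FPKM in +/+ Xist1lox/+, 75.0 FPKM in MD1/MD1 XistdeltaA/+ and 3.68 FPKM in +/+ XistdeltaA/+. Prl2c2, of the proliferin family whose near-identical copies make its FPKM uncertain, had 1.09, 0.713, 6.07 and 0.301 FPKM in the same order, and its mean passed 1 FPKM through the third of these values. Both thus followed the order of the macrophage sum at its top and bottom, and the part of those cells was not tested. Cdh3, P-cadherin, went the other way, with 27.8 FPKM in MD1/MD1 Xist1lox/+, 18.8 FPKM in +/+ Xist1lox/+, 16.1 FPKM in MD1/MD1 XistdeltaA/+ and 43.1 FPKM in +/+ XistdeltaA/+. Plac1, an X-linked placental gene with a mean just under 1 FPKM, had 2.37 FPKM in MD1/MD1 XistdeltaA/+ and 0.338 to 0.739 FPKM in the other libraries. These 4 genes were named for passing 2-fold, so nothing is read from the library in which each was highest. Plet1 and Fgfr2 also passed 2-fold for Xist1lox/+ over XistdeltaA/+, with log2 ratios of -1.08 in MD1/MD1 and -1.10 in +/+. Plet1 was highest in MD1/MD1 XistdeltaA/+ (4.82 FPKM), and Fgfr2, like Cdh3, in +/+ XistdeltaA/+ (14.9 FPKM).

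**Figure D5:**
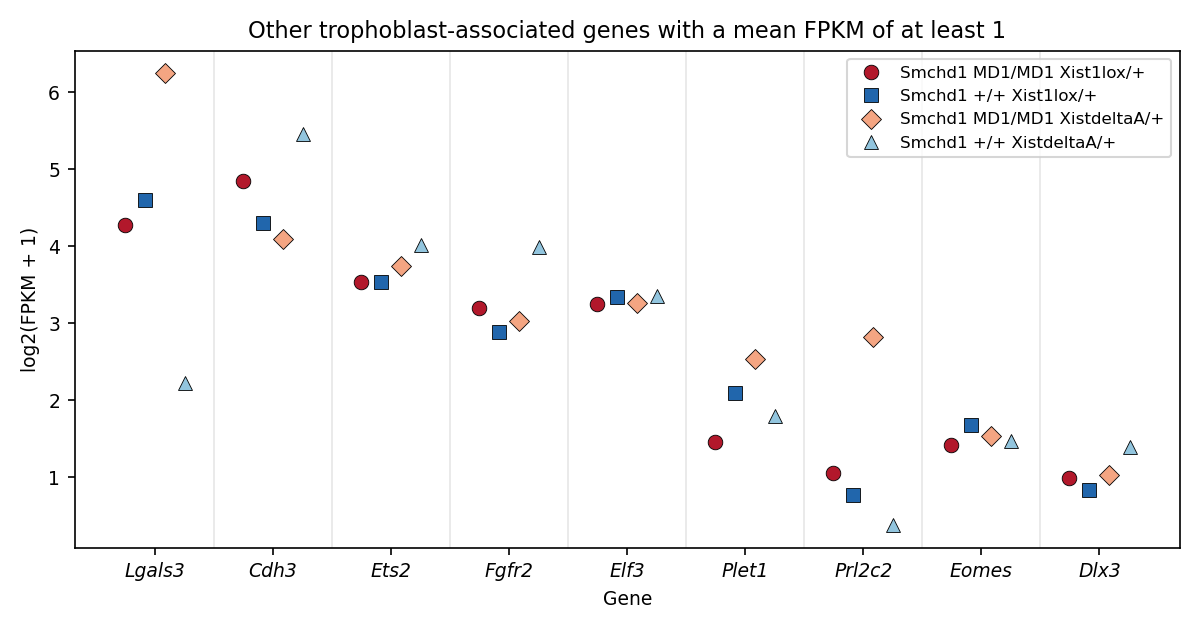
Log2(FPKM + 1) of the 9 other trophoblast genes with a mean of at least 1 FPKM, 1 point per library. Lgals3 and Prl2c2 are highest in MD1/MD1 XistdeltaA/+ and lowest in +/+ XistdeltaA/+, Cdh3 and Fgfr2 are highest in +/+ XistdeltaA/+, and Elf3 and Eomes are nearly level.

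All 14 epithelial junction genes had a mean of at least 1 FPKM, the lowest of them for the desmosomal cadherin Dsc2, with 3.39 to 7.77 FPKM. Their median log2 ratios for MD1/MD1 over +/+ were 0.23 with Xist1lox/+ and -0.14 with XistdeltaA/+, and for Xist1lox/+ over XistdeltaA/+ -0.03 in MD1/MD1 and -0.49 in +/+. Epcam and Cldn6, an adhesion molecule and a tight junction claudin, had 232 to 348 and 252 to 341 FPKM. Cldn4, another claudin, was the 1 gene past 2-fold in any comparison, with 114 FPKM in MD1/MD1 Xist1lox/+ against 47.4 FPKM in +/+ Xist1lox/+. Of all genes, 0.445% were 2-fold higher there.

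Of the other intermediate filament genes, Vim and Lmna varied more between libraries than Krt18 and Krt8, and the other 4 measured, Nes, Des, Lmnb1 and Lmnb2, varied less than Krt18. Vim, the filament protein vimentin of mesenchymal cells, had 101 FPKM in MD1/MD1 Xist1lox/+, 153 FPKM in +/+ Xist1lox/+, 263 FPKM in MD1/MD1 XistdeltaA/+ and 34.1 FPKM in +/+ XistdeltaA/+. Lmna, an A-type lamin, had 19.6, 26.7, 49.7 and 14.9 FPKM in the same order, while Lmnb1, a B-type lamin, had 126 to 139 FPKM. Vim and Lmna were the 2 of 6 measured genes of this list 2-fold higher with XistdeltaA/+ (median 0.45, against 3.91% of all genes), and 0 passed with Xist1lox/+ (median -0.36). For Xist1lox/+ over XistdeltaA/+ 2 were lower in MD1/MD1 (median -0.40), against 2.17% of all genes. In +/+ 1 was higher (median 0.23), against 1.73%. Vim and Lmna were highest and lowest in the libraries with the highest and lowest macrophage and fibroblast sums, whose part in this was not tested.

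Of 8 measured genes for keratin partners and epithelial factors, 3 were 2-fold higher in MD1/MD1 with XistdeltaA/+ (median -0.06, against 3.91% of all genes) and 0 in either direction with Xist1lox/+ (median 0.09). These were Plec, the linker protein plectin (11.3 against 3.43 FPKM), Klf5 (11.6 against 4.56 FPKM) and Klf6 (133 against 62.8 FPKM), of which Klf5 is a zinc finger factor of the trophectoderm and of epithelia. All 3 were highest in MD1/MD1 XistdeltaA/+ and lowest in +/+ XistdeltaA/+, as were the macrophage and fibroblast sums, whose part in this was not tested. Evpl and Ppl encode the cornified envelope proteins envoplakin and periplakin. Among +/+ libraries they were the 2 genes 2-fold lower in Xist1lox/+ than in XistdeltaA/+, against 1.4% of all genes (median of the list -0.35). Evpl had 0.203 against 2.26 FPKM and Ppl 2.21 against 6.56 FPKM. Only +/+ XistdeltaA/+ carried the mean of Evpl past 1 FPKM, so nothing is read from its ratio. In MD1/MD1 1 gene, Plec, was 2-fold lower in Xist1lox/+ than in XistdeltaA/+ (median -0.42), against 2.17% of all genes.

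Lists of other embryonic lineages held few measured genes. Of 10 primitive endoderm genes 1 was measured, the endocytic adaptor Dab2 with 5.72 to 8.08 FPKM, and Foxa2, the next highest, had at most 0.756 FPKM. Of 8 surface ectoderm genes 2 were measured, the grainyhead factors Grhl2 (7.40 to 9.92 FPKM) and Grhl3 (2.14 to 2.81 FPKM). None of these 3 genes passed 2-fold. Of 10 primitive streak genes 4 were measured. Fgf8, a growth factor of the streak, was 2-fold higher in MD1/MD1 XistdeltaA/+ (23.3 FPKM) than in +/+ XistdeltaA/+ (8.96 FPKM), as were 3.91% of all genes. The Xist1lox/+ libraries had 32.8 FPKM of Fgf8 in MD1/MD1 and 35.6 FPKM in +/+. Of 9 germ cell genes 4 were measured. Kit, the receptor of stem cell factor, had 3.59 FPKM in +/+ Xist1lox/+ against 10.3 FPKM in +/+ XistdeltaA/+. This was the 1 difference past 2-fold, where 1.4% of all genes were lower. Prdm1, a repressor that acts with TFAP2C in germ cell specification in the mouse, had 1.45 to 2.39 FPKM.

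The patterns nearest to the mean of Krt8 and Krt18, by Euclidean distance of centred log2(FPKM + 1) over 4 libraries among 11469 genes, were those of Hspg2 (distance 0.025), Klf10 (0.043), Nefm (0.059), Crebrf (0.064) and Igf2r (0.070). Hspg2, the basement membrane proteoglycan perlecan, had 22.3 FPKM in MD1/MD1 Xist1lox/+, 22.2 FPKM in +/+ Xist1lox/+, 33.9 FPKM in MD1/MD1 XistdeltaA/+ and 30.7 FPKM in +/+ XistdeltaA/+. Krt19 ranked 2541 and Krt7 11200 in that order, with distances of 0.46 and 1.36. Krt8 and Krt18 themselves differed, with log2 ratios of 0.73 and -0.44 for MD1/MD1 over +/+ with XistdeltaA/+. Their mean is thus the pattern of neither gene, and nearness to it is not likeness to Krt8 or to Krt18. With 4 libraries such likeness is a description only.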

How the data were processed

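Stranded mRNA-seq was run on 4 EpiSC samples, as the labels' protocols state. Cufflinks 2.2.1, Cuffdiff and build mm9 appear in the submitters' processing notes without a stated role; aligner, variant list and annotation were not given in the sources used. The authors deposited 3 values per gene and library, per the file headers: counts of allele-assigned reads (7301034 to 8008500 a library), the fraction of them that is paternal, and FPKM, whose scaling between libraries is not given. Fractions times counts gave whole paternal reads for 100% of values within 1e-06. A further 6 columns belong to no sample here and were not used.

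Ratios used log2(FPKM + 1) and genes with a mean of at least 1 FPKM (11471). Smchd1 genotype and Xist mutation were fitted together with limma 3.58.1 (trend, 1 residual degree of freedom, Benjamini-Hochberg adjustment, called under 0.05); edgeR 4.0.16 on counts, also with DESeq2 1.42.0 size factors, was an alternative, since counts cover variants only. The p-values measure the spread between these libraries, which treats the difference between both backgrounds as noise. Fisher's exact test used genes with at least 20 reads in all 4 libraries (scipy 1.17.1). limma, edgeR and Fisher's test were run on simulated data with known changes. A minimum share of recovered changes was required of edgeR and Fisher's test, and not of limma. A gene that limma did not call is therefore not shown to be unchanged. Members, 17 lists and families, and tests were chosen with earlier results of these data known. Named were all members, the AP-2, GATA and CDX families, and per list up to 4 genes past 2-fold in any comparison and the 2 of highest mean; genes with values outside this rule (such as Eomes, Fgf5, Hand2, Foxf1, Prl3d1, Tpbpa, Syna, Synb and Zfp42) were chosen after their values were seen. Alternatives are given at the end.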

Additional observations from a re-analysis of the deposited data

Results flagged for a closer look

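Krt7 went in opposite directions in MD1/MD1 over +/+ in the Xist backgrounds, with a log2 ratio of -1.67 with Xist1lox/+ and 0.83 with XistdeltaA/+. The difference between them was not tested, since each rests on 1 library a side. Hand1 had log2 ratios of -0.10 with Xist1lox/+ and 2.17 with XistdeltaA/+, which was not tested either.

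The paternal share of Krt19 differed by 53.5 points in MD1/MD1 minus +/+ with Xist1lox/+ and by -3.09 points with XistdeltaA/+. The difference between both values was not tested, and the genes within 2 Mb had a median share of 0% in +/+ Xist1lox/+.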

How the results depend on the processing

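The number of members past 2-fold was 1 for MD1/MD1 over +/+ with XistdeltaA/+, and 2 with a pseudocount of 0.1 (Krt7 joined Hand1) and 2 on allele-assigned reads (Krt7 higher, Tfap2c lower). For Xist1lox/+ over XistdeltaA/+ it was 1 rather than 2 on reads in MD1/MD1, as Hand1 has no reads, and 1 rather than 0 with a pseudocount of 0.1 in +/+ (Tfap2c, -1.01). On log2(RPM + 1), Tfap2c turned to 0.06 in MD1/MD1, on 6 reads in both libraries, and Krt8 to 0.07 for MD1/MD1 over +/+ with Xist1lox/+. Scaling to the median ratio changed none of these counts, and the pair with Xist1lox/+ kept a count of 1 under each setting. Genes called for Smchd1 genotype numbered 4, and 0 without a filter on low FPKM (943 at an unadjusted p under 0.05), 22 with edgeR without a filter, and 9 to 24 when a library was left out (14 without +/+ XistdeltaA/+, 9 without MD1/MD1 XistdeltaA/+, 24 without +/+ Xist1lox/+, 11 without MD1/MD1 Xist1lox/+). For Xist mutation they numbered 0, and 11 with edgeR without a filter and 0 to 891 when a library was left out (322 without +/+ XistdeltaA/+, 891 without MD1/MD1 XistdeltaA/+, 0 without either Xist1lox/+ library); the cause was not tested. Of the members that a setting tested, none was called for Smchd1 genotype. For Xist mutation members were called only in the 2 fits that left a lone XistdeltaA/+ library, from which no call is read. Filters on FPKM or reads left some members untested in most settings. A minimum of 10 or 50 reads left the counts for paternal shares within 1.5 times. The fit on both terms compares libraries within each Xist background, as pairs; with the tested term alone it called 6 genes for Smchd1 genotype and 0 for Xist mutation. Tfap2c, Gata3, Elf5 and Cdx2 had at most 22 allele-assigned reads a library, which limits that readout.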
